A study of Rattus norvegicus with 64 samples.

Results

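The 7 genes described here are the Sox transcription factors Sox2, Sox4, Sox5, Sox6, Sox8, Sox9, and Sox11, chosen by gene name as factors of neurons and glia from the 17260 genes with counts. Each of the 7 had a row in all 64 libraries and passed the filter on low counts. Total RNA depleted of ribosomal RNA was sequenced from entorhinal cortex of Long Evans rats, with no transgene or allele named in the labels, at postnatal day (P) 2, 9, 23, and 45. Tissue was cut under a microscope from slices of the medial (MEC) and the lateral (LEC) entorhinal cortex and split into layer II (LII) and the deeper layers (LIII–VI, here LDeep). Each of the 4 combinations of region and layer had 5 P2 libraries, 4 P9 libraries, 3 P23 libraries, and 4 P45 libraries. The labels number the replicates without saying whether a number marks an animal, so the p-values measure the spread between these libraries. The design asks how the level of each Sox gene changed with age, whether it differed between LII and LDeep, and whether it differed between MEC and LEC.

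Sox proteins bind DNA through a high mobility group (HMG) domain related to that of the sex-determining factor SRY, and they are sorted into groups by similarity of this domain. SoxC factors (Sox4 and Sox11) drive gene expression in neurons that have just left the cell cycle, and SoxD factors (Sox5 and Sox6) lack an activation domain of their own, Sox5 being needed for the proper fate and migration of deep-layer cortical neurons and Sox6 for interneurons. Sox2, of the SoxB1 group, maintains neural stem cells and remains in astrocytes, while the SoxE factors Sox8 and Sox9 act in oligodendrocytes and in astrocytes, respectively. In bulk tissue, fewer cells of a type and less RNA per cell cannot be told apart.

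On the Rn6 build, to which the counts refer, Sox4 (chromosome 17, 37615022 to 37619727, plus strand) and Sox11 (chromosome 6, 46629971 to 46631988, minus strand) were each annotated as 1 exon. Sox5 had 15 exons on chromosome 4 (178066781 to 178441547, minus strand) and Sox6 had 16 on chromosome 1 (185673177 to 186182830, plus strand). Sox2 had 2 exons on chromosome 2 (121165137 to 121167545, plus strand), Sox8 had 3 on chromosome 10 (14932348 to 14937336, minus strand), and Sox9 had 3 on the same chromosome (101288528 to 101294028, plus strand). No other gene had exons that overlapped theirs. Whether pairs with their ends in exons of different genes were counted in these rows was not checked.

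Promoter sequences were held for 3 of the 7 genes, Sox2, Sox6, and Sox11, in the RefSeq set for the GRCr8 build, and not for Sox4, Sox5, Sox8, or Sox9. The 250 bases before the start are shown for Sox11 and Sox2, which were higher at the younger ages. Sox6 was higher there too, but it lies on the plus strand in the Rn6 annotation and on the minus strand in the GRCr8 set, so its window may not be its promoter and is not described. They are chr6:49738795-49739044 (minus strand) and chr2:119464881-119465130 (plus strand), read 5′ to 3′ along the gene, with the letters ATTGG, the reverse complement of the CCAAT box, in capitals.
Sox11: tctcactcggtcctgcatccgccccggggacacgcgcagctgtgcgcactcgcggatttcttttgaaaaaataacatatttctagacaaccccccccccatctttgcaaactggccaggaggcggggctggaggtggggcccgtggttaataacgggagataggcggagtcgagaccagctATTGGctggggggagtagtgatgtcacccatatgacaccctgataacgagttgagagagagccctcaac
Sox2: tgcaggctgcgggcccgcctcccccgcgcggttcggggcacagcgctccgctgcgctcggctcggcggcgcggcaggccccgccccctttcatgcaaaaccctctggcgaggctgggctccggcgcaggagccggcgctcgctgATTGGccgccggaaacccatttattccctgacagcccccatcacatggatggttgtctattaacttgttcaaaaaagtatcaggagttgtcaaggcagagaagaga
ATTGG began 69 bases before the start in Sox11 and 106 in Sox2. CCAAT or ATTGG occurred in 34.0% of the 33469 promoters of this length. CCGCCC, the reverse complement of the GC box GGGCGG, began 232 bases before the start in Sox11 and 171 in Sox2, and either form occurred in 30.5% of promoters. The letters TATAAA (12.9% of promoters) and the Sox motifs AACAAT (10.3%) and AACAAAG (5.14%), searched on both strands, were not in either window. GC content was 56.8% in Sox11 and 64.4% in Sox2, beside a median of 51.2% over all promoters. These matches are descriptions of letters and were not tested as binding sites.

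Counts of read pairs on genes summed to 3894334 to 11439143 per library (median 7569157.5), a pair that overlapped several genes counting for each. A single count was worth 0.0874 to 0.257 CPM, the unit that divides a gene's count by the library's sum. Levels are given as log2 CPM, and a log2 fold change (LFC) with its standard error (SE) comes from the quasi-likelihood test of edgeR over all 64 libraries and 12521 genes, with Benjamini-Hochberg adjusted p. The labelled layers carried their markers. Of 13 markers of deep-layer projection neurons that were tested, 12 were lower in LII and 1, Ntsr1, was higher, and the LII genes Reln (LFC 1.48) and Calb1 (LFC 0.93) were higher in LII. LII also held more RNA of the overlying meninges. Of 11 meningeal fibroblast genes, 10 were higher in LII and 1 lower, with a summed level of 88 to 1816 CPM (median 1178) in LII and of 87.2 to 1234 CPM (median 174.8) in LDeep. All 8 endothelial genes tested were higher in LII. The part of these cells in the layer differences was not tested. The first MEC LII library of P2 stood apart from its group, with a median correlation of 0.91 with the other 4 libraries over genes. It held 1346 counts of Foxj1, a factor of ciliated ependymal cells, where the other 4 held 11 to 40, and 2148 counts of Sox2. The deviations from the group, as SDs on the log2 scale over genes, were widest in this library at 0.77. In 4 other libraries of the 64 they were 0.554 to 0.588. These 4 included the fourth LEC LDeep library of P45, which was high in Sox8 and Sox9. The others were the first and the fourth MEC LDeep libraries of P2 and the third MEC LII library of P2. The next library was at 0.419. Results that lost or gained a call without any of these 5 are given with and without it.

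**Figure D1:**
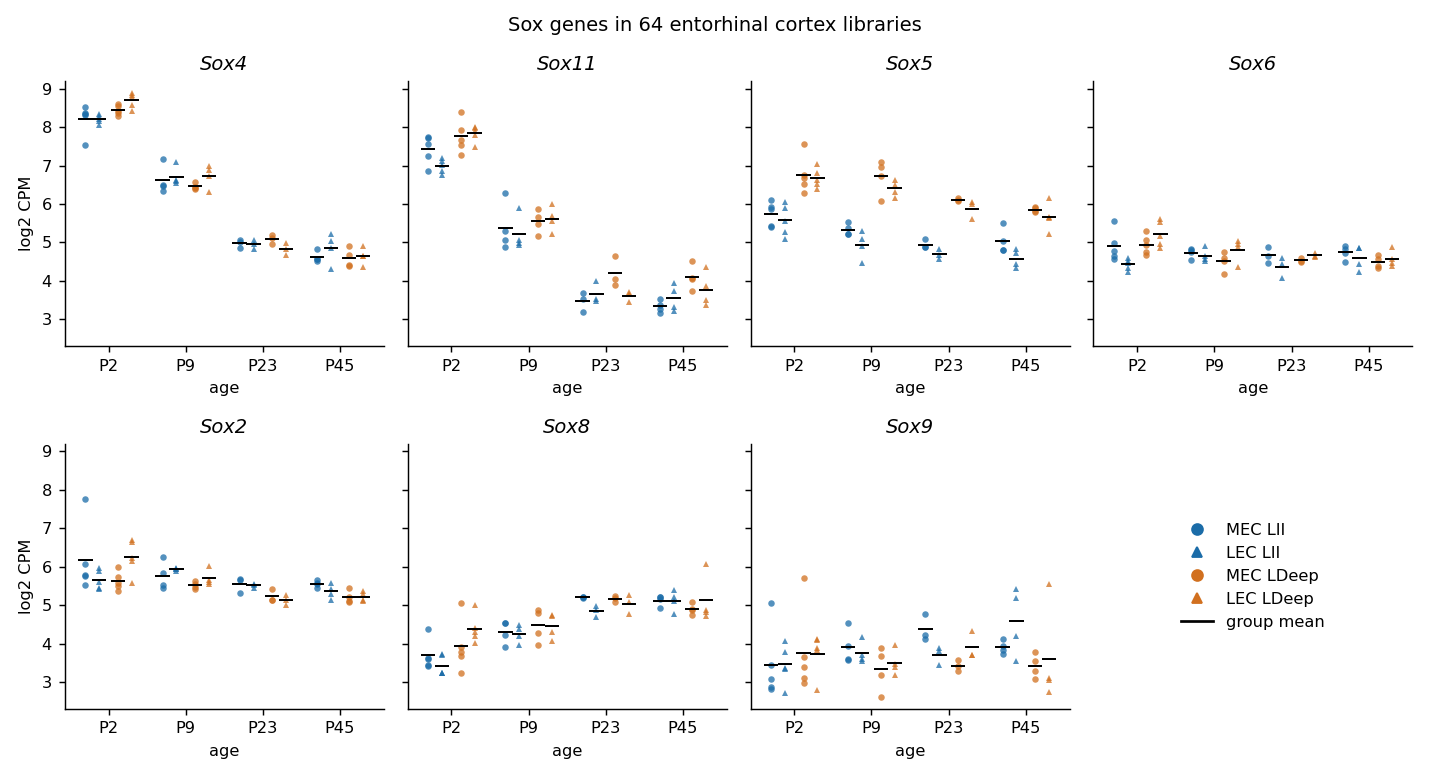
Level of each Sox gene (vertical axis, log2 CPM) by age (horizontal axis) in all 64 libraries. Points are libraries, colour gives the layer, shape the region, and the bar is the mean of a group of 3 to 5 libraries. Sox4 and Sox11 fall until P23, Sox5 is higher in LDeep at every age, Sox8 increases, and the highest Sox2 point (7.75) is the first MEC LII library of P2.

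The SoxC genes showed the largest change with age of the 7. Sox4 lay between 7.55 and 8.88 log2 CPM in the 20 libraries of P2 (median 8.36), between 6.32 and 7.18 in the 16 of P9 (median 6.56), between 4.68 and 5.19 in the 12 of P23 (median 4.98), and between 4.30 and 5.23 in the 16 of P45 (median 4.65). Every P2 or P9 library therefore lay above every P23 or P45 library. Counts of Sox4 were 1395 to 3871 per library at P2 and 77 to 416 at P45. Sox11 lay between 6.77 and 8.40 log2 CPM at P2 (median 7.54), between 4.89 and 6.28 at P9 (median 5.39), between 3.19 and 4.64 at P23 (median 3.66), and between 3.17 and 4.50 at P45 (median 3.62). Its younger and older libraries did not overlap either, the lowest young library being at 4.89 and the highest old library at 4.64. How many of all genes separated by age in this way was not counted. With P2 and P9 against P23 and P45, Sox4 was 6.52-fold higher at the younger ages (LFC 2.70 ± 0.06 (SE), adjusted p = 1.24e-39) and Sox11 was 6.96-fold higher (LFC 2.80 ± 0.10 (SE), adjusted p = 2.31e-32).

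Both SoxC genes fell in 2 steps of similar size. From P2 to P9, Sox4 fell by 1.76 ± 0.08 (SE) on the log2 scale and Sox11 by 2.05 ± 0.12 (SE). From P9 to P23, Sox4 fell by 1.69 ± 0.09 (SE) and Sox11 by 1.76 ± 0.14 (SE), all 4 steps with an adjusted p of 5.8e-16 or less. From P23 to P45 neither passed the test, with an LFC of −0.27 (95% interval −0.45 to −0.09) for Sox4 and −0.04 (−0.32 to 0.25) for Sox11. For Sox4 in this last step the adjusted p was 0.0936 and became 0.0256 (LFC −0.35) without the 4 libraries of P45 replicate 4.

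Of the 7 genes, 5 were higher and 1 was lower at P2 and P9 than at P23 and P45. Of all genes tested, 81.6% differed in this contrast, 40.6% being higher and 41.0% lower at the younger ages, so a change with age was common in these tissues. The median LFC of the 7 genes was 0.53 and that of all genes tested was −0.01. From P2 to P9, 6 of the 7 changed (63.4% of all genes), from P9 to P23 5 of the 7 did (64.6%), and from P23 to P45 none did by edgeR (3.85%). In this last step 1 gene, Sox4, had an unadjusted p under 0.05, and DESeq2 and limma voom called none.

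The SoxD genes were higher at the younger ages by less. Sox5 ranged from 5.10 to 7.55 log2 CPM at P2 (median 6.20), from 4.46 to 7.10 at P9 (median 5.79), from 4.57 to 6.16 at P23 (median 5.34), and from 4.33 to 6.16 at P45 (median 5.36). The ranges of Sox5 overlapped between all ages. Its LFC for the younger over the older ages was 0.69 ± 0.08 (SE, adjusted p = 1.42e-11). It fell from P2 to P9 (LFC −0.36, adjusted p = 0.00201) and from P9 to P23 (LFC −0.46, adjusted p = 0.000578). The first of these falls was lost with MEC alone (LFC −0.25, adjusted p = 0.148) and with the libraries of a replicate number summed (LFC −0.24, adjusted p = 0.092). Over all 64 libraries Sox6 had the narrowest range of the 7, from 4.07 to 5.62 log2 CPM. It lay between 4.22 and 5.62 at P2 (median 4.81) and between 4.22 and 4.92 at P45 (median 4.57). Its LFC for the younger over the older ages was 0.21 ± 0.06 (SE, adjusted p = 0.00254), the smallest among the genes that passed, and 0.18 (adjusted p = 0.0635) with MEC alone. The fall of Sox6 from P2 to P9 (LFC −0.21, adjusted p = 0.0224) was lost without the first MEC LII library of P2 alone (LFC −0.16, adjusted p = 0.0614), with LEC alone (LFC −0.13, adjusted p = 0.394), and without P2 replicate 4 or P9 replicates 1 or 2 (adjusted p 0.0516 to 0.0674).

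Sox2 lay between 5.37 and 7.75 log2 CPM at P2 (median 5.77), between 5.41 and 6.24 at P9 (median 5.65), between 5.01 and 5.68 at P23 (median 5.37), and between 5.07 and 5.64 at P45 (median 5.32). The P2 range was set by 1 library, and without it the highest P2 value was 6.70. Sox2 was 1.45-fold higher at the younger ages (LFC 0.53 ± 0.09 (SE), adjusted p = 5.81e-07), and this held without that library (LFC 0.45, adjusted p = 8.38e-10). Its fall from P2 to P9 (LFC −0.29, adjusted p = 0.0319) did not hold without it (LFC −0.12, adjusted p = 0.17). The same fall was also lost without P2 replicates 1 or 3 or P9 replicates 1, 2, or 4 (LFC −0.11 to −0.29, adjusted p 0.0521 to 0.222), with MEC alone (adjusted p = 0.103) or LEC alone (adjusted p = 0.142), in limma voom (adjusted p = 0.109), and with the libraries of a replicate number summed (adjusted p = 0.0579). From P9 to P23 Sox2 fell by 0.38 ± 0.14 (SE, adjusted p = 0.0132), with an adjusted p of 0.0502 without P9 replicate 3, 0.0786 with summed libraries, and 0.37 with MEC alone.

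Of the SoxE genes, Sox8 moved opposite to the other genes that passed, while Sox9 did not pass the test at any step. Sox8 lay between 3.23 and 5.05 log2 CPM at P2 (median 3.71), between 3.902 and 4.88 at P9 (median 4.33), between 4.69 and 5.25 at P23 (median 5.14), and between 4.72 and 6.06 at P45 (median 5.00). It was 1.91-fold lower at the younger ages (LFC −0.93 ± 0.09 (SE), adjusted p = 1.36e-13), rising by an LFC of 0.49 from P2 to P9 (adjusted p = 0.000589) and of 0.68 from P9 to P23 (adjusted p = 2.23e-05). Sox9 lay between 2.72 and 5.70 log2 CPM at P2 (median 3.41) and between 2.73 and 5.54 at P45 (median 3.75). Single libraries held the extremes. In LEC LDeep at P45 the 4 libraries were at 3.04, 3.11, 2.73, and 5.54 log2 CPM, and in MEC LDeep at P2 the 5 were at 2.97, 3.10, 3.38, 5.70, and 3.64. Its LFC for the younger over the older ages was −0.23 (95% interval −0.57 to 0.11, adjusted p = 0.223), and it became −0.36 (adjusted p = 0.0344) without P2 replicate 4 and −0.07 (adjusted p = 0.666) without the fourth LEC LDeep library of P45.

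The order of the 7 genes by level, as TPM, a share of all transcripts that corrects for the annotated exon length, changed with age. At P2 Sox11 (193.6 ± 63.2 TPM (SD, n = 20)) and Sox4 (149.2 ± 29.2) led, with overlapping ranges, followed by Sox2 (59.7 ± 37.5) and Sox5 (58.2 ± 28.3). Sox6 (23.0 ± 7.25), Sox8 (9.79 ± 4.70), and Sox9 (7.25 ± 5.89) were lowest. At P9 the means of Sox5, Sox2, Sox11, and Sox4 lay between 41.9 and 45.4 TPM (n = 16), closer together than their SDs. At P45 Sox2 (32.04 ± 5.42 TPM (SD, n = 16)) and Sox5 (27.2 ± 10.9) led, with overlapping ranges, followed by Sox8 (19.5 ± 6.61) and Sox6 (16.6 ± 3.41). Sox11 (12.01 ± 4.04), Sox4 (10.1 ± 2.403), and Sox9 (8.13 ± 6.30) came last, and their ranges overlapped. Sox11 and Sox4 thus moved from the first and second place to the fifth and sixth, and Sox9 was last at every age.

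**Figure D2:**
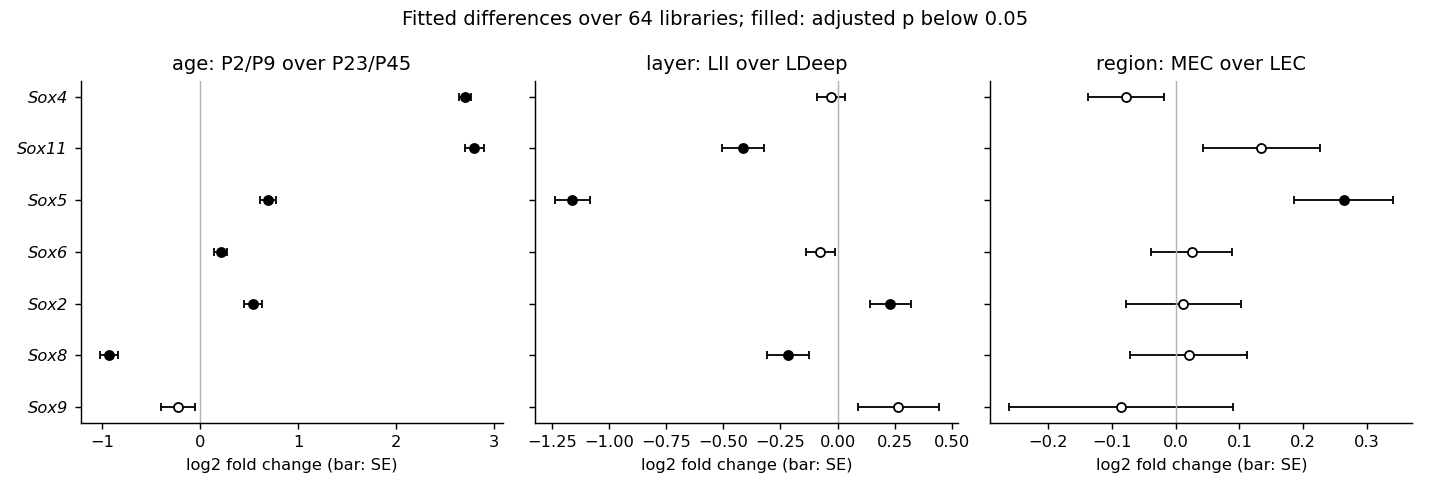
LFC of the 7 Sox genes (horizontal axes, log2 scale, bars are SE) for age, layer, and region, each from the fit over 64 libraries. Filled points have an adjusted p below 0.05. Sox4 and Sox11 lie near 2.7 and 2.8 for age, Sox5 lies at −1.16 for layer, and Sox5 is the only filled point for region.

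Between layers, with ages and regions weighted equally, Sox5, Sox11, and Sox8 were lower and Sox2 was higher in LII. These 4 of 7 compare with 54.0% of all genes, of which 30.5% were lower and 23.5% higher in LII. Within MEC 1 was higher and 2 were lower in LII (40.8% of all genes differed, 21.0% higher and 19.9% lower), and within LEC 4 were lower and none was higher (38.6%, 17.4% higher and 21.2% lower). The median LFC of the 7 was −0.08 and that of all genes −0.05. Sox4 (LFC −0.03, 95% interval −0.15 to 0.09), Sox6 (LFC −0.08, −0.20 to 0.05), and Sox9 (LFC 0.27, −0.08 to 0.61) did not pass the test.

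Sox5, the gene of deep-layer neurons, had by far the largest layer difference of the 7. In LII it lay between 5.10 and 6.12 log2 CPM in P2 libraries (median 5.71, n = 10), between 4.46 and 5.52 at P9 (median 5.21, n = 8), between 4.57 and 5.08 at P23 (median 4.85, n = 6), and between 4.33 and 5.51 at P45 (median 4.80, n = 8). In LDeep it lay between 6.28 and 7.55 at P2 (median 6.64), between 6.07 and 7.10 at P9 (median 6.56), between 5.60 and 6.16 at P23 (median 6.06), and between 5.22 and 6.16 at P45 (median 5.80). In all 8 combinations of region and age every LII library lay below every LDeep library. The share of all genes whose layers separated without overlap was not counted, here or for the genes below. Sox5 was 2.23-fold lower in LII (LFC −1.16 ± 0.08 (SE), adjusted p = 3.09e-18), by −1.11 in MEC and −1.21 in LEC. The difference passed at every age, with an LFC of −1.06 (P2), −1.44 (P9), −1.19 (P23), and −0.95 (P45), and it did not differ between the younger and older ages beyond the error (layer by age LFC −0.19, 95% interval −0.49 to 0.12, adjusted p = 0.548). Other deep-layer genes lay lower in LII too, those with the largest LFC being Nxph3 (−3.33), Cplx3 (−3.29), Fezf2 (−3.17), a factor of subcortically projecting neurons, and Rprm (−3.01), and the median LFC of the 13 tested was −1.86.

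The SoxC genes differed from each other in this respect. Sox11 was 1.33-fold lower in LII (LFC −0.41 ± 0.09 (SE), adjusted p = 0.000146). In LII it lay between 3.17 and 3.94 log2 CPM at P45 (median 3.35, n = 8), and in LDeep between 3.38 and 4.50 (median 3.95, n = 8). LII lay wholly below LDeep in 3 of the 8 combinations of region and age and overlapped in 5. Sox4 overlapped in 7 of 8. At P2 both were lower in LII, Sox11 by an LFC of −0.60 (adjusted p = 0.00189) and Sox4 by −0.35 (adjusted p = 0.00976). The LFC of Sox11 later was −0.22 (P9), −0.35 (P23), and −0.49 (P45), none past the threshold, the last with an adjusted p of 0.0525 that fell to 0.00318 with the replicate number as a block, to 0.0316 in DESeq2, and to 0.0389 in limma voom. At P45 the adjusted p was also under the threshold without the third MEC LII or the fourth MEC LDeep library of P2 (0.0367 and 0.0298), and without P2 replicates 4 or 5, P23 replicate 3, or P9 replicate 4 (adjusted p 0.0112 to 0.0459), as was that at P9 without P9 replicate 4 (LFC −0.44, adjusted p = 0.0435). Within regions Sox11 was lower in LII of MEC (LFC −0.50, adjusted p = 0.00146) and of LEC (LFC −0.33, adjusted p = 0.0397). The LEC call was lost without the fourth LEC LDeep library of P45 (LFC −0.29, adjusted p = 0.0764) and without P2 replicates 2, 3, or 4, P9 replicates 1, 2, or 3, P23 replicates 1 or 2, or P45 replicate 3 (adjusted p 0.054 to 0.138). It was lost too with RLE size factors (adjusted p = 0.0573), with no filter (0.0617), and with at least 10 counts in every sample (0.105).

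At P2 5 of the 7 genes were lower in LII and none was higher (19.2% of all genes differed at this age, 8.48% lower and 10.8% higher), while at P9, P23, and P45 Sox5 was the only gene that passed (33.0%, 25.9%, and 26.4% of all genes). Besides Sox5, Sox4, and Sox11 these were Sox6 (LFC −0.41, adjusted p = 0.00535) and Sox8 (LFC −0.64, adjusted p = 0.00458). Sox6 lost its call without P2 replicate 4 (adjusted p = 0.0943) or 5 (adjusted p = 0.0912), and Sox8 without P2 replicate 4 (LFC −0.36, adjusted p = 0.118). None of the 7 passed the test of whether the layer difference differs between the younger and the older ages, in which 8.8% of all genes did by edgeR. Sox8 alone had an unadjusted p under 0.05 there, with an LFC of −0.42 (adjusted p = 0.171), and −0.54 (adjusted p = 0.0369) without P2 replicate 1. DESeq2 and limma voom called none of the 7 there.

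**Figure D3:**
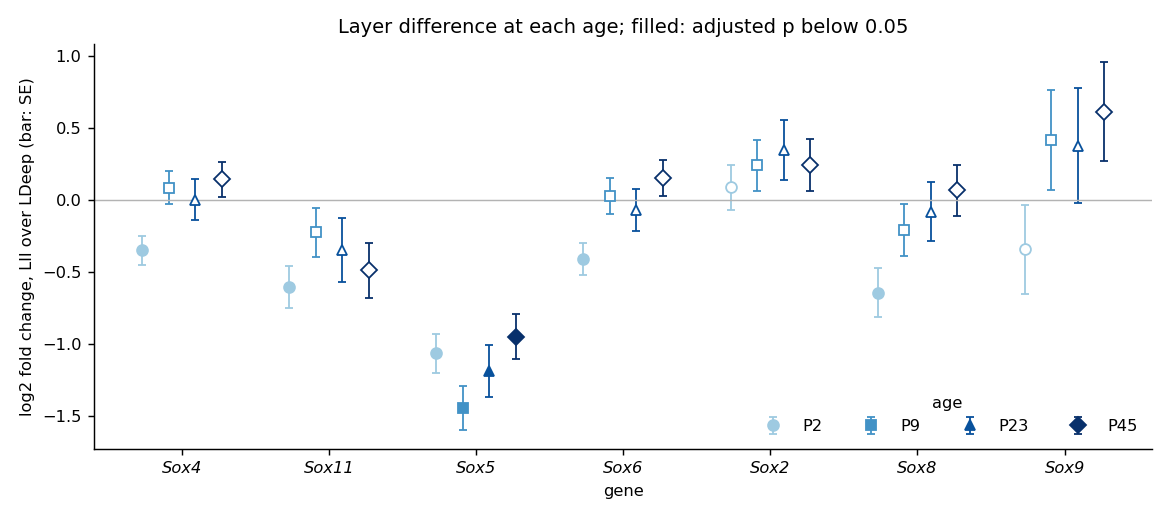
Layer difference of each Sox gene at each age (vertical axis, LFC of LII over LDeep, bars are SE) from the fit over 64 libraries. Filled points have an adjusted p below 0.05. Sox5 lies between −0.95 and −1.44 at all ages, and the other filled points, Sox4, Sox11, Sox6, and Sox8, are all at P2.

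The P2 differences were next examined within each region, in contrasts added after the data had been seen. In LEC at P2 the same 5 genes were lower in LII (12.1% of all genes differed, 5.04% lower and 7.02% higher), namely Sox5 (LFC −1.08), Sox8 (−0.996), Sox11 (−0.85), Sox6 (−0.83), and Sox4 (−0.50). The 5 LEC LII libraries of P2 held Sox6 at 4.22, 4.33, 4.60, 4.53, and 4.47 log2 CPM, all below the 5 LEC LDeep libraries at 4.95, 5.16, 4.85, 5.62, and 5.54. Sox4 lost its call without P2 replicate 4 or 5 (adjusted p 0.0871 and 0.104). In MEC at P2 only Sox5 passed as lower (LFC −1.05, adjusted p = 0.000252; 9.23% of all genes differed, 3.55% being lower), and Sox6 was at an LFC of 0.01 (95% interval −0.29 to 0.31). Sox11 (LFC −0.35), Sox8 (−0.29), and Sox4 (−0.20) had the same direction there as in LEC but did not pass. Their layer difference at P2 did not pass the test of a difference between the regions (adjusted p 0.399, 0.292, and 0.492). The layer difference of Sox6 differed between the regions at P2 (LFC 0.83, adjusted p = 0.0427; 1.33% of all genes), and over all ages (LFC 0.46, adjusted p = 0.0463; 1.25% of all genes). Without the first MEC LII library of P2 these became 0.62 (adjusted p = 0.185) and 0.40 (adjusted p = 0.0596), and without the fourth LEC LDeep library of P45 the value over all ages was 0.43 (adjusted p = 0.0742). Both values also lost the threshold without the first MEC LDeep library of P2 (0.77 at P2, adjusted p = 0.0702, and 0.45 over all ages, adjusted p = 0.0534), without the third MEC LII library of P2 (adjusted p = 0.0532 and 0.0567), and with the replicate number as a block (adjusted p = 0.0501 and 0.0504). Over all ages it was lost as well with RLE, in limma voom, and with either other filter (adjusted p 0.0592 to 0.0799), and at P2 under the same (adjusted p 0.0527 to 0.0841). The value over all ages was lost in 12 of the 16 fits without a replicate number, all but those without P2 replicates 3 or 4, P9 replicate 1, or P45 replicate 2 (0.36 to 0.49, adjusted p 0.0612 to 0.306), and that at P2 in 12 of them, all but those without P2 replicate 4, P9 replicates 1 or 4, or P45 replicate 4 (0.58 to 0.91, adjusted p 0.0511 to 0.211). Over all ages, Sox6 was lower in LII of LEC (LFC −0.31, adjusted p = 0.00497, and −0.22 with adjusted p = 0.0785 without P23 replicate 2) and at an LFC of 0.16 in MEC (adjusted p = 0.156).

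Sox2 was higher in LII over all ages and regions (LFC 0.23 ± 0.09 (SE), adjusted p = 0.0278), and the difference was small. It was at 5.14 to 5.64 log2 CPM in LII at P45 (median 5.49, n = 8) and at 5.07 to 5.44 in LDeep (median 5.17, n = 8). The layers overlapped in 7 of the 8 combinations of region and age. The LFC was 0.16 (adjusted p = 0.0188) without the first MEC LII library of P2 and 0.14 without all of P2 replicate 1. It was lost without P9 replicates 3 or 4, P23 replicate 3, or P45 replicates 2, 3, or 4 (LFC 0.20 to 0.22, adjusted p 0.0513 to 0.104). Within regions it passed in MEC (LFC 0.44, adjusted p = 0.00482), with 0.28 (adjusted p = 0.00564) without that library, and was at 0.03 (95% interval −0.23 to 0.28) in LEC. At P23 it passed only without that library or without P2 replicate 1 (LFC 0.35, adjusted p = 0.0403 and 0.0407). The 5 MEC LII libraries of P2 were at 7.75, 5.52, 6.08, 5.79, and 5.75 log2 CPM, and the first of these set the P2 result. With it, Sox2 was higher in MEC LII at P2 (LFC 0.81, adjusted p = 0.0143; 5.69% of all genes were higher), and without it the LFC was 0.15 (adjusted p = 0.611). In LEC at P2 the direction was the opposite, at an LFC of −0.63 (adjusted p = 0.0549), −0.62 (adjusted p = 0.00138) without that MEC library, −0.74 and −0.71 without P2 replicates 1 and 2 (adjusted p = 0.000891 and 0.0427), and −0.66 (adjusted p = 0.0252) with the replicate number as a block. The difference between the regions at P2 (LFC 1.44, adjusted p = 0.0135) was 0.77 (adjusted p = 0.103) without the first MEC LII library and 0.87 (adjusted p = 0.055) without P2 replicate 1.

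Markers of neural progenitors and astrocytes lay higher in LII beside Sox2. Of 12 progenitor and radial glia genes, 11 were higher in LII and 1 lower, those with the largest LFC being Vim (2.33), Tnc (1.02), Nes (0.78), and Mki67 (0.49), with a summed level of 716.2 to 3258 CPM (median 2241) in LII and 390.1 to 3223 CPM (median 1546) in LDeep. Of 14 astrocyte genes, 11 were higher in LII and 1 lower, led by Gjb6 (LFC 2.29), Gfap (1.26), Aldh1l1 (0.90), and Gja1 (0.86), at 1500 to 8663 CPM in sum (median 4053) in LII and 1194 to 6033 CPM (median 2401) in LDeep. The median LFC was 0.33 for the progenitor genes and 0.48 for the astrocyte genes, beside −0.05 for all genes. In MEC, where Sox2 passed, 9 progenitor and 11 astrocyte genes were higher in LII and 0 were lower. In LEC, where the LFC of Sox2 was 0.03, 4 progenitor and 8 astrocyte genes were higher, and 1 astrocyte gene was lower. At P2, with both regions, 1 progenitor gene was higher and 1 lower, and 7 astrocyte genes were higher and 0 lower. The part of these cells in the Sox2 difference was not tested.

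Of the SoxE genes Sox8 was marginally lower in LII. Its LFC was −0.22 ± 0.09 (SE, adjusted p = 0.0427), and LII lay below LDeep without overlap in 1 of the 8 combinations of region and age. The call was lost in DESeq2 (adjusted p = 0.0504), with RLE size factors (0.0604), with no filter (0.0671) or a filter of 10 counts in every sample (0.132), without the fourth LEC LDeep library of P45 (LFC −0.18, adjusted p = 0.0674) or the fourth MEC LDeep library of P2 (LFC −0.18, adjusted p = 0.054), and without P2 replicates 2, 3, or 4, P9 replicates 1, 2, or 3, P23 replicates 1 or 2, or P45 replicate 4 (LFC −0.15 to −0.21, adjusted p 0.0606 to 0.154). In LEC the LFC was −0.37 (adjusted p = 0.0199), and −0.28 (adjusted p = 0.0551) without that LEC library, with the call lost also with at least 10 counts in every sample (adjusted p = 0.0585) and without P9 replicate 3, P23 replicates 1 or 2, or P45 replicate 4 (adjusted p 0.0593 to 0.105). In MEC it was −0.06 (95% interval −0.31 to 0.19). Of 12 myelinating oligodendrocyte genes, 7 were lower in LII and 1, Cldn11, was higher. Their summed level was 152.1 to 5590 CPM (median 208.2) in LII and 128.3 to 18190 CPM (median 288.6) in LDeep. At P2, where the LFC of Sox8 was −0.64, 0 of these 12 genes were lower in LII and 1 was higher. The count at P2 says little, because the 12 genes rose mainly later. Their median LFC was 0.55 from P2 to P9 and 5.25 from P9 to P23, and the SE of a layer LFC at P2 reached 11667.5. Of 9 oligodendrocyte precursor genes, 3 were higher and 3 lower in LII over all ages, and 1 was higher and 3 lower at P2. The part of these cells in the Sox8 difference was not tested.

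Sox9 was at an LFC of 0.27 ± 0.18 (SE, adjusted p = 0.199) for LII over LDeep. Without the fourth LEC LDeep library of P45 it was higher in LII (LFC 0.40, adjusted p = 0.0263), and at P45 alone its LFC moved from 0.61 (adjusted p = 0.196) to 1.13 (adjusted p = 0.00458). The fits without all of P45 replicate 4 (LFC 0.39, adjusted p = 0.0372, and 1.11 with adjusted p = 0.0144 at P45) and without P2 replicate 4 (LFC 0.37, adjusted p = 0.0453, and 0.65 with adjusted p = 0.0173 in MEC) also passed, as did those without the fourth MEC LDeep library of P2 alone (LFC 0.37, adjusted p = 0.0393, and 0.62 with adjusted p = 0.0187 in MEC). At P45 the 8 LII libraries lay between 3.55 and 5.42 log2 CPM (median 4.03) and the 8 LDeep libraries between 2.73 and 5.54 (median 3.20).

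Between regions, Sox5 was the only gene of the 7 that passed the test (15.4% of all genes did). It was 1.20-fold higher in MEC (LFC 0.26 ± 0.08 (SE), adjusted p = 0.0125). In MEC and LEC its means were 5.75 and 5.57 log2 CPM in LII and 6.75 and 6.67 in LDeep at P2, 5.32 and 4.94 in LII and 6.71 and 6.40 in LDeep at P9, 4.94 and 4.70 in LII and 6.11 and 5.88 in LDeep at P23, and 5.04 and 4.58 in LII and 5.85 and 5.67 in LDeep at P45, with SDs of 0.05 to 0.48. The MEC mean was the higher in all 8 combinations of age and layer. The call was lost without P9 replicate 2 (LFC 0.23, adjusted p = 0.054) or P23 replicate 1 (LFC 0.23, adjusted p = 0.0733). The other 6 lay between an LFC of −0.09 for Sox9 and 0.13 for Sox11, and the 95% intervals of Sox2, Sox4, Sox6, and Sox8 together ran from −0.20 (Sox4) to 0.20 (Sox8). None of the 7 passed the test of region by age (4.38% of all genes) by edgeR, none had an unadjusted p under 0.05 there, and DESeq2 and limma voom called none.

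Members of a Sox group share structure, so the ratio of the counts of close relatives was compared within libraries, which removes differences in depth. These 9 tests were made by permutation (2-sided) and adjusted together. The log2 ratio of Sox4 to Sox11 counts was 1.02 ± 0.34 (SD, n = 36) at the younger and 1.11 ± 0.41 (SD, n = 28) at the older ages, and the difference of −0.08 did not pass an exact test over the 16 means of a replicate number (adjusted p = 0.465). The ratio was higher in LII by 0.38 on the log2 scale (adjusted p = 9e-05) and lower in MEC by 0.20 (difference −0.20, adjusted p = 0.00851). The ratio of Sox5 to Sox6 was higher at the younger ages by 0.49 (exact test, adjusted p = 0.00059), lower in LII (difference −1.08, adjusted p = 9e-05), and higher in MEC by 0.24 (adjusted p = 0.00544). The 32 LII libraries had a mean of 0.51 ± 0.46 (SD), the 32 LDeep libraries one of 1.56 ± 0.43. The ratio of Sox8 to Sox9 was 0.48 ± 0.56 (SD, n = 36) at the younger and 1.21 ± 0.53 (SD, n = 28) at the older ages (difference −0.73, exact test, adjusted p = 0.0011). It was lower in LII (difference −0.50, adjusted p = 0.00021) and did not pass between regions (difference 0.11, adjusted p = 0.387). The ratio of Sox4 to Sox11, which each fell with age, therefore differed between layers. The ratios of the other pairs differed between layers and between the younger and older ages.

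**Figure D4:**
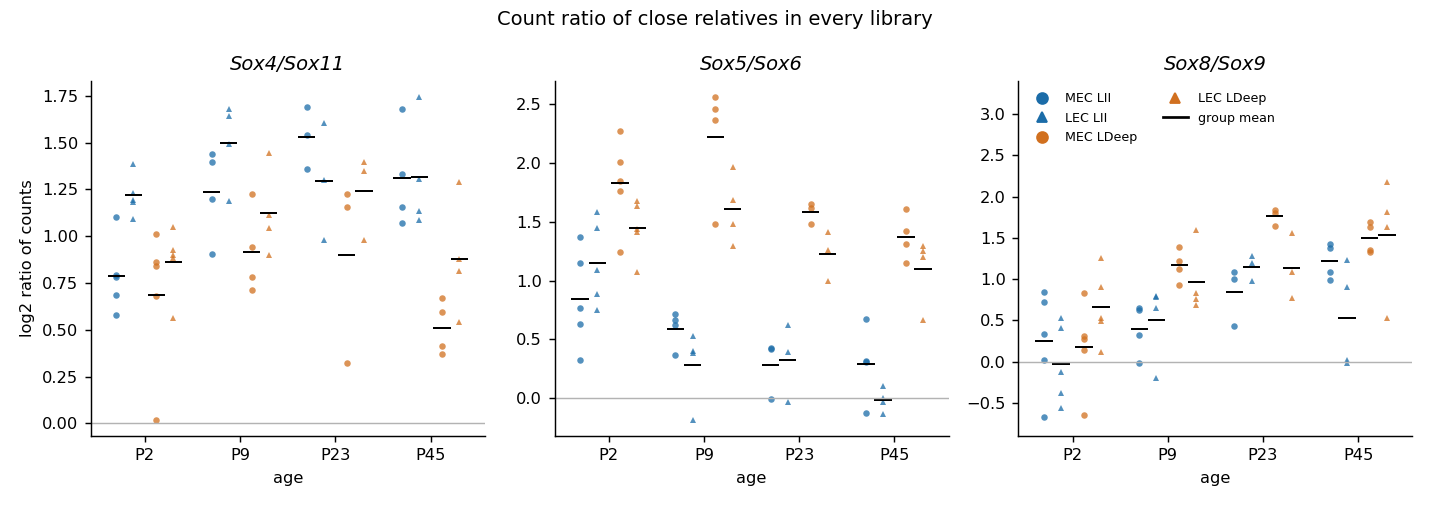
Log2 ratio of counts of close relatives (vertical axes) by age (horizontal axes), with a point for every library and a bar for each group mean of 3 to 5 libraries. Blue is LII and orange LDeep, circles are MEC and triangles LEC. The Sox5 to Sox6 ratio has means of 0.51 in LII and 1.56 in LDeep, with overlapping ranges (−0.18 to 1.585 and 0.66 to 2.555). The Sox8 to Sox9 ratio is on average higher at P23 and P45.

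As a description over the 64 libraries, which share age, layer, and region, Sox4 and Sox11 levels (log2 CPM) had a Pearson r of 0.98 with each other. Sox8 had an r of −0.78 with Sox4 and −0.74 with Sox11. Among 11892 genes with a mean of at least 1 CPM, those most like Sox4 were RGD1560108 (r = 0.98), Igsf9 (0.98), and Lmnb1, which encodes a nuclear lamin (0.98). Those most like Sox11 were RGD1560108 (0.98), the histone methyltransferase gene Ehmt1 (0.97), and the DNA methyltransferase gene Dnmt1 (0.97). Sox5 was most like the kainate receptor subunit gene Grik3 (0.91), the corepressor gene Tle4 (0.87), and Prokr1 (0.87). Sox6 was most like Sall3 (0.76), Pou2f1 (0.70), and Pdpr (0.70), and Sox2 most like Rnd3 (0.82), Spata6 (0.76), and Lpar4 (0.72). Sox8 was most like Padi2 (0.90), Traf3 (0.89), and the glutamate transporter gene Slc1a2 (0.88), and Sox9 most like Nfia (0.80), a factor of astrocyte formation, Sipa1l3 (0.78), and Gli3 (0.77).

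Of 12 other Sox genes on the list, 8 had a row and 6 passed the filter. Sox12, the third SoxC gene, was higher at the younger ages (LFC 2.19, adjusted p = 9.3e-25), with a median of 65.0 TPM at P2 and 7.86 TPM at P45. Sox10, the oligodendrocyte factor of the SoxE group, was lower at the younger ages (LFC −0.81, adjusted p = 4.89e-12) and in LII (LFC −0.60, adjusted p = 9.7e-08). The SoxF genes of endothelium, Sox7 (LFC 0.94), Sox17 (1.06), and Sox18 (0.78), and the SoxD gene Sox13 (0.98) were higher in LII. Sox17 was lower (LFC −0.84) and Sox18 higher (LFC 0.37) at the younger ages, so that 2 of the 6 passed in each direction. Between regions the lowest adjusted p among the 6 was that of Sox10 (LFC 0.23, adjusted p = 0.0706). Sox15 (median 3 counts) and Sox14 did not enter the fit. Sox14 was at 0 in 62 libraries and had 95 counts in the third MEC LII library of P2 and 4 in the third LEC LDeep library of P2.

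The marker lists changed with age beside the Sox genes. Of 14 immature neuron genes, 13 were higher and 1, Neurod1, was lower at the younger ages (median LFC 2.44), led by Dcx (LFC 4.80), Tubb2b (4.70), Dpysl3 (4.59), and Dpysl5 (4.07). Of 12 progenitor genes, 8 were higher and 2 lower, the largest LFC being those of Fabp7 (3.97), Tnc (3.84), Mki67 (3.41), and Hopx (−2.22). All 12 myelinating oligodendrocyte genes were lower at the younger ages (median LFC −5.49). Of 14 astrocyte genes, 12 were lower and 2 higher (median LFC −1.35), with S100b (LFC −3.59), Gjb6 (−3.12), and Slc1a2 (−2.82) in front. Of 9 oligodendrocyte precursor genes, 3 were higher and 2 lower, and of 13 interneuron genes, 7 were higher and 5 lower, from Lhx6 (LFC 1.47) to Pvalb (−7.24). Of 9 general cortical neuron genes, 7 were lower and none was higher at the younger ages by edgeR (median LFC −1.04). Of 13 deep-layer genes, 5 were higher and 2 lower, and of 10 microglia genes, 9 were lower at the younger ages. The part of the cell types in the changes of the Sox genes was not tested.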

How the data were processed

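Entorhinal cortex RNA of 64 samples was analysed. Per the labels and file headers, the authors prepared stranded libraries with ribosomal RNA removed, used Trimmomatic 0.33 for trimming and STAR 2.4.0 for alignment (build rn6), and counted read pairs on exons with featureCounts (Subread 1.4.6-p1), strand-specific, both ends mapped, chimeras left out, and pairs overlapping several genes counted for each. The deposited values are raw counts per gene. The 7 genes and all lists were chosen with earlier results of these data known. The main fit was edgeR 4.0.16 (R 4.3.3) glmQLFTest with TMM, filterByExpr, and 1 mean for each of 16 groups (region, layer, age), no block, threshold 0.05. The SE is the LFC divided by the square root of F, and 95% intervals are normal. Log2 CPM used a prior count of 2. Count ratios used a prior of 0.5 and 100000 permutations within age and the other factor, or, for age, all 11440 arrangements. Scripts were tested on simulated data. Named genes were the 7, other Sox genes, the 3 most correlated genes for each, and up to 4 called genes of each list with the largest LFC, plus Foxj1, Ntsr1, Reln, Calb1, Cldn11, and Neurod1, chosen after their values were seen. No replicates agreed within sampling noise (lowest chi-square per degree of freedom 2.82). Alternatives were DESeq2 1.42.0, limma 3.58.1 voom with TMM and quantile normalization, RLE size factors, 2 other filters, each region alone, sums over a replicate number, a replicate block, and each replicate number left out. The 5 libraries farthest from their groups were each left out alone, chosen after seeing the data.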

Additional observations from a re-analysis of the deposited data

Results flagged for a closer look

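Of 84 checks, each of 1 gene in 1 group, 10 found a library whose gap to the nearest other exceeded Dixon's 95% limit. For a single check chance gives such a gap in about 1 in 20. The checks were not independent, since several of the 10 fell in the same library. In the first MEC LII library of P2 Sox2 was at 7.75 log2 CPM (others 5.52 to 6.08), Sox4 at 7.55 (others 8.31 to 8.51), Sox8 at 4.39 (others 3.404 to 3.64), and Sox9 at 5.05 (others 2.82 to 3.43). In the fourth LEC LDeep library of P45 Sox8 was at 6.06 (others 4.72 to 4.87) and Sox9 at 5.54 (others 2.73 to 3.11). Sox9 was at 5.70 in the fourth MEC LDeep library of P2 (others 2.97 to 3.64) and at 2.79 in the second LEC LDeep library of P2 (others 3.83 to 4.12). In the fourth LEC LII library of P9 Sox4 was at 7.08 (others 6.54 to 6.62) and Sox11 at 5.90 (others 4.93 to 5.06).

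The layer difference differed between MEC and LEC for Sox6 over all ages (LFC 0.46), for Sox6 at P2 (LFC 0.83), and for Sox2 at P2 (LFC 1.44), by the test of the difference itself. All 3 lost the threshold without the first MEC LII library of P2.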

How the results depend on the processing

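Of the alternatives planned for the 7 genes, 2261 values kept direction and side of the threshold, 90 without a call moved, 81 lost the threshold, 16 gained it, and 2 reversed. With LEC alone Sox2 at P2 was lower in LII (LFC −0.59, adjusted p = 0.00464), and with MEC alone Sox6 at P2 was at 0.0046 (adjusted p = 0.99). All 9 count ratios kept direction and call under every alternative run. The cause of the other changes was not tested.

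Counts of the 7 genes that passed moved as follows. For the layer in LEC (4 in the main fit) 2 passed with at least 10 counts in every sample, and 2 without the fourth LEC LDeep library of P45, an alternative chosen after seeing the data, like those without the first or the third MEC LII or the first or the fourth MEC LDeep library of P2. For the layer at P2 (5) 1 passed with MEC alone. For P23 (1) 2 passed without the first MEC LII library. For P45 (1) 2 passed in DESeq2, in limma voom, with the replicate block, and without that LEC library, the third MEC LII, or the fourth MEC LDeep library. For MEC at P2 (2) 1 passed in limma voom and 1 without the first MEC LII library. For layer by region at P2 (2) 1 passed with RLE, with no filter, with at least 10 counts, with the replicate block, and without the third MEC LII or the first MEC LDeep library, and 0 in limma voom and without the first MEC LII library. For layer by region (1) 0 passed with RLE, either filter, limma voom, the replicate block, or without any of these libraries but the fourth MEC LDeep library, which left 1. Leaving out a replicate number, the counts ranged from 0 to 1 for P45 over P23, 2 to 4 for layer, 1 to 4 for LEC, 3 to 5 for P2, 1 to 2 for P9, P23, P45, and MEC at P2, 4 to 6 for LEC at P2, 0 to 1 for layer by age, layer by region, and region, and 0 to 2 for layer by region at P2.

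Counts over all genes moved by over 1.5 times with at least 10 counts in every sample, which tests fewer genes: layer 4353 (6767 in the main fit), LEC 2892 (4835), MEC 3312 (5112), P2 1232 (2409), P9 2430 (4128), P23 2137 (3239), P45 2046 (3310), LEC at P2 711 (1510), MEC at P2 688 (1156), and layer by region at P2 62 (167). With MEC and LEC alone, each with fewer samples, they were 76 and 224 for P45 over P23 (482), 542 and 1584 for P2, 1547 and 2091 for P9, 1610 and 1758 for P23, 1436 and 1958 for P45, and 434 and 493 for layer by age (1102). Sums over a replicate number gave 60 for P45 over P23. MEC at P2 had 672 in limma voom and 572, 723, and 2461 without the first MEC LII, the fourth MEC LDeep, and the first MEC LDeep library. Layer by region at P2 had 294 in DESeq2, 93 with RLE, 45 in limma voom, 70 with no filter, and 31 and 103 without the first and the third MEC LII library. Over all fits that leave out a replicate number or 1 of the 5 libraries, the counts ranged from 283 to 629 for P45 over P23, 1437 to 3038 for P2, 2065 to 3706 for P23, 572 to 2461 for MEC at P2, 31 to 227 for layer by region at P2, 63 to 218 for layer by region (156), and 302 to 666 for region by age (548). The lowest of these for P45 over P23 and for P23 came without P23 replicate 3, for P2 without P2 replicate 2, and for layer by region and region by age without P23 replicate 1.

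The labels do not say whether a replicate number marks an animal. Deviations from group means of samples with the same number had mean correlations of 0.126 to 0.143 over 32 pairs of each kind, with 17 to 20 of 32 over 0.1, and −0.045 to −0.039 for samples with different numbers. The replicate block moved layer by region from 156 to 286 genes, gave Sox6 0.46 (adjusted p = 0.0504) there and 0.83 (adjusted p = 0.0501) at P2, and brought Sox11 at P45 (LFC −0.50, adjusted p = 0.00318) and Sox2 in LEC at P2 (LFC −0.66, adjusted p = 0.0252) past the threshold. It changed no other call of the 7 genes in the contrasts of layer and region and their interactions. The age contrasts were not run with the block, since replicate numbers are nested within ages, so their calls were not checked in this way.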
